A study of Mus musculus with 14 samples.

Results

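Regulatory T cells from the spleen of control mice were described here as they stood in 8 of the 14 samples of the series. The 8 samples were those titled WT1 to WT4, each present as parts 1 and 2, and the parts were added to give 4 control units of the 7 units in all. The mice carried wild-type Tln1 alleles (Tln1wt/wt) and a heterozygous Foxp3cre/wt allele, in which the Foxp3 locus drives Cre together with a YFP reporter, on a C57/B6 background. Heterozygosity at this X-linked gene implies female mice. No treatment or age was given. Cells were sorted by flow cytometry as Foxp3+YFP+, so expression of Foxp3 was part of the selection, and each library came from 1 to 2 animals. Which animals stood behind which unit was not given, so the spread between units given below may be that of animals, pools or preparations. The series was made to study integrin activation in these cells, and the libraries with a deletion of Tln1 were not used here.

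These cells are a CD4 lineage that restrains other lymphocytes. The X-linked transcription factor Foxp3 holds their identity, and they depend on interleukin 2 made by other cells, which they take up through a high-affinity receptor that includes CD25, the product of Il2ra. They act through surface receptors such as CTLA-4, through the conversion of extracellular ATP to adenosine, and through cytokines including TGF-beta and interleukin 10. Many such cells in the spleen are thymus-derived and recirculate with the homing receptors of naive T cells.

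Each unit held between 13017008 and 39706502 assigned reads: 13017008, 21114813, 39706502 and 13627264 in units 1 to 4. For most genes the parts of a unit agreed within sampling noise, with exceptions named below. The median standard deviation (SD) of log2 CPM (counts per 1000000 reads) between parts was 0.064, where the counts alone give 0.069, so a unit was counted as 1 replicate (n = 4). Levels are given as TPM, reads scaled by transcript length to a total of 1000000, summed over the transcripts of a gene. Where 4 values of a gene follow each other they are those of units 1 to 4 in that order, and ± gives the SD over the 4 units.

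A property of the TPM values bears on every level below. Transcripts shorter than 500 bases held 46.4 to 52.3% of all TPM in a unit but only 3.85 to 4.3% of the reads. TPM divides reads by an effective length, which is small for a short transcript. Over transcripts of at least 500 bases alone, rescaled to the same total, a gene had a median of 2.05 times its summed TPM. Shares of a gene's TPM from short transcripts are given beside it where they reached 30%.

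Some units stood apart. Of the 20 genes of the myeloid list, 19 were highest in unit 1. Without Ctss, left out after its values were seen, the list summed to 176, 16.4, 19.2 and 42.2 TPM. The share of all genes that were highest in a given unit was not counted, for this list or those below. Constant-region genes of immunoglobulins with Jchain summed to 2740.3, 5132, 1550.4 and 542 TPM, and were highest in unit 2. Early response genes such as Fos were higher in units 1 and 4, which also had the fewest reads. Mitochondrially encoded genes held 11.9, 10.8, 6.76 and 11.2% of TPM, lowest in unit 3. In bulk RNA, fewer cells of a type and less RNA per cell cannot be told apart.

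Across the 30284 genes with a transcript in the tables, 12248 had a mean of at least 1 TPM, 7579 of at least 10, 1134 of at least 100 and 138 of at least 1000. Protein-coding genes made up 10951 of those at 1 TPM or more, which is 50.6% of the 21633 coding genes, and their median was 16.3 TPM. At the other end, 5350 coding genes had 0 reads in all 4 units. A count of 0 allows up to 0.077 to 0.23 CPM in a single unit (3 counts, from the deepest to the shallowest library) and 0.035 CPM over the 4 units together, for counting error only. The 100 most abundant genes held 45.7 ± 2.95% of TPM but 10.8 ± 1.07% of reads. Pseudogenes held 24.3 ± 1.87% of TPM against 3.28 ± 0.061% of reads, and T cell receptor J segments 5.94 ± 1.03% of TPM against 0.021% of reads. Ribosomal protein genes held 10.6 ± 0.64% of TPM and 4.22 ± 0.48% of reads.

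**Figure D1:**
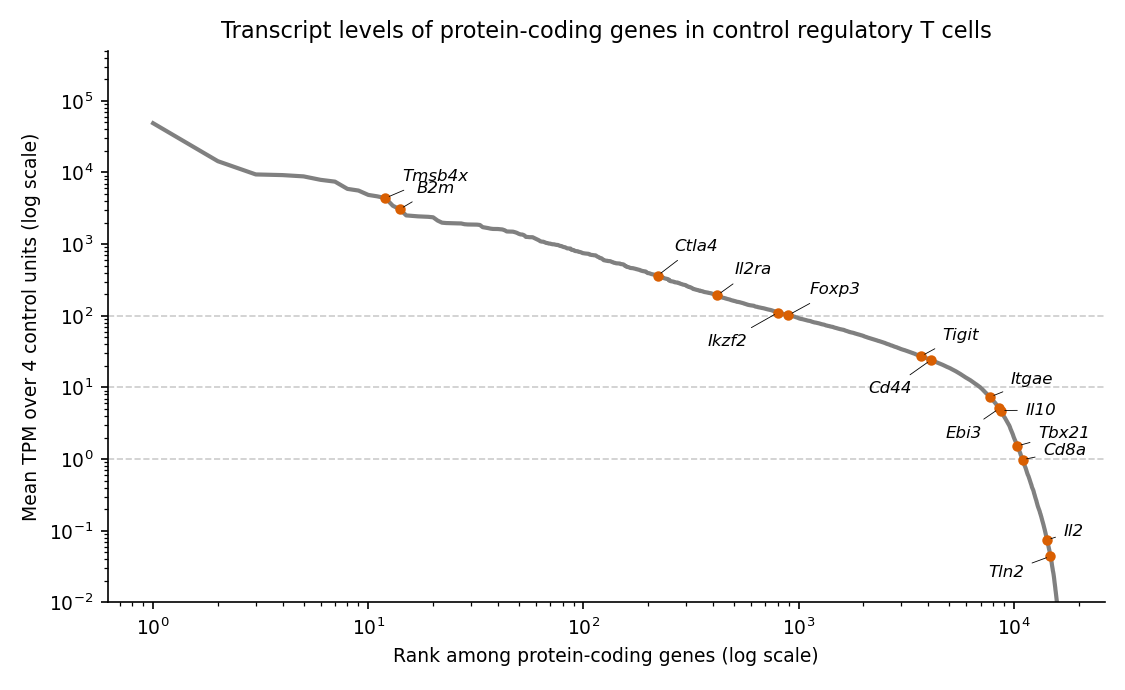
Mean TPM over the 4 control units (log scale) against rank among protein-coding genes (log scale), with named genes as orange points and dashed lines at 1, 10 and 100 TPM. Tmsb4x and B2m lie near the top, the 4 identity genes Ctla4, Il2ra, Ikzf2 and Foxp3 lie at 363, 194, 111 and 102 TPM, and Il2 and Tln2 lie under 0.1 TPM.

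The 4 genes that define the population were all abundant in every unit. Ctla4 (chr1:60887000-60915832, GRCm38), the inhibitory receptor that removes CD80 and CD86 from antigen-presenting cells, was measured at 495, 238, 265 and 456 TPM. Il2ra (chr2:11642807-11693193), the alpha chain of the interleukin 2 receptor, was at 207, 184, 208 and 178 TPM. Ikzf2 (chr1:69531214-69687245), which encodes the zinc finger factor Helios, was at 149, 77.7, 104 and 115 TPM. Foxp3 (chrX:7573644-7595245) was at 113, 73.5, 128 and 94.0 TPM, and 12% of its sequence, in words of 31 bases, also occurred in another gene. Among coding genes their means ranked 221, 419, 802 and 896. Il2ra was the steadiest of them and Ctla4 the least steady, with units 1 and 4 above units 2 and 3. The means of Ikzf2 (111 ± 29.4) and Foxp3 (102 ± 23.6) differed by less than the SD of either, and every unit of Il2ra (194 ± 15.5) lay above every unit of both. On transcripts of at least 500 bases alone the same order held, at 752, 398, 228 and 209 TPM.

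Most Foxp3 TPM came from 1 transcript record. Foxp3-203, which has 13 exons and a first exon at chrX:7579669-7579846, held 88.2, 87.7, 92.5 and 87.0% of the TPM of the gene. Foxp3-202 differs by a first exon farther downstream, at chrX:7580483-7580578, and held 6.24, 7.0, 4.63 and 7.59%, named here after its values were seen. The RefSeq table holds 2 Foxp3 promoters on GRCm38.p6, plus strand. The start of the first, at position 7579676, is that of the minor record Foxp3-204 (4.05% of TPM) and lies inside the first exon of Foxp3-203, and the start of the second is that of Foxp3-202. The stretches from 60 bases before to 10 bases from each start are shown because these first exons differ. Capitals mark TATAA, which occurs on either strand in 24.9% of the 32851 promoters of 300 bases in the table.
Foxp3, first RefSeq promoter, chrX:7579616-7579685: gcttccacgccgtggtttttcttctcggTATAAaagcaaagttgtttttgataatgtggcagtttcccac
Foxp3, second RefSeq promoter, chrX:7580423-7580492: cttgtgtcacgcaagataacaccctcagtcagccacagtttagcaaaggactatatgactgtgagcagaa
The first stretch held TATAA 32 bases before the start, and the second stretch had no match to these letters.

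The messages of the other identity genes were also mostly of 1 form. Ctla4-201, with 4 exons, held 86.4, 87.2, 68.7 and 90.4% of Ctla4 TPM. Ctla4-202 lacks the exon of 110 bases at chr1:60913219-60913328, the third of the gene, which encodes the transmembrane part, and corresponds to the form known as soluble CTLA-4. It held 12.8, 12.4, 29.8 and 9.27% of Ctla4 TPM, or 63.5, 29.5, 78.9 and 42.3 TPM. Unit 3 thus had the largest share of the short form and the lowest level of the full form, at 182 TPM. Ikzf2-201, the form with 8 exons, held 93.1% of Ikzf2 TPM. Il2ra-201, the full coding form, held 69.8%. Il2ra-203, a record of retained intron sequence, held 23.1, 9.06, 10.7 and 16.6%, with the higher shares in units 1 and 4.

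All 24 genes of the regulatory T cell signature reached 1 TPM, 19 reached 10 TPM and 8 reached 100 TPM. Their median was 43.3 TPM, against 16.3 TPM for all coding genes at 1 TPM or more. After Ctla4 the most abundant was Izumo1r, which encodes folate receptor 4, at 257, 298, 406 and 249.8 TPM. Il2rb, the beta chain shared by the interleukin 2 and interleukin 15 receptors, was at 203, 193, 299 and 205 TPM. The TNF receptor family members Tnfrsf18 (GITR) and Tnfrsf4 (OX40) were at 151 ± 44.3 and 134 ± 12.3 TPM, with 33.8 and 30.1% of this from short transcripts. Unit 3 had the highest value for Izumo1r, Il2rb, Tnfrsf18 and Tnfrsf4.

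A middle group lay between 10 and 100 TPM. Lrrc32, which encodes the TGF-beta docking receptor GARP, was at 57.0, 54.3, 76.2 and 57.5 TPM. Nt5e (CD73), which converts AMP to adenosine, was at 62.0, 51.7, 65.4 and 64.1 TPM. Gpr83, an orphan receptor typical of these cells, was at 42.4 ± 10.3 TPM, Tnfrsf9 (4-1BB) at 38.6 ± 4.91 TPM and Nrp1, the neuropilin marker of thymus-derived cells, at 38.2 ± 5.39 TPM. Entpd1 (CD39), the ATP hydrolase upstream of CD73, was at 44.2 ± 7.18 TPM, but 75.7% of this came from short transcripts and its level was 22 TPM without them. Tigit, an inhibitory receptor of effector-type cells, was at 27.3 ± 3.45 TPM and Penk, the enkephalin precursor, at 16.5 ± 3.04 TPM. The members under 10 TPM were Plagl1 (8.70 ± 2.84 TPM), Itgae, the alpha chain of the E-cadherin receptor CD103 (7.37 ± 0.53 TPM), Itgb8, an integrin chain that activates latent TGF-beta (6.18 ± 2.89 TPM), Ebi3, a chain of interleukin 35 (5.09 ± 1.28 TPM), and Klrg1, a lectin-like receptor of differentiated cells (4.52 ± 1.16 TPM).

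**Figure D2:**
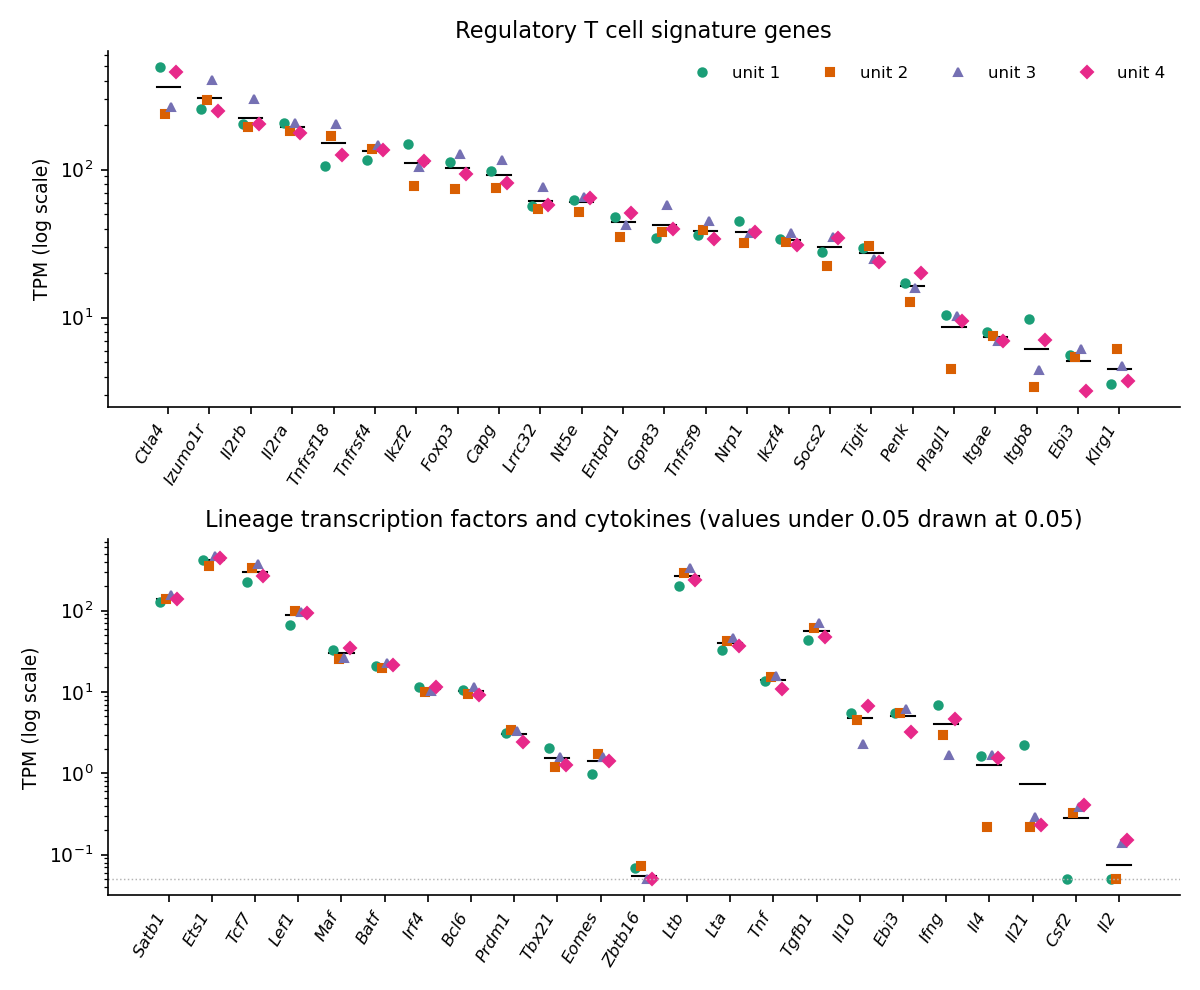
TPM on a log scale for each control unit (symbols by unit, black line at the mean of 4 units), for signature genes above and for transcription factors and cytokines below. The signature runs from Ctla4 at 363 TPM to Klrg1 at 4.52 TPM, while Il2, Csf2 and Zbtb16 lie under 1 TPM.

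Every one of the 28 genes of the T cell receptor complex and its proximal signalling reached 10 TPM, and 23 reached 100 TPM. The constant genes of the receptor beta chain, Trbc2 and Trbc1, were at 1584 ± 312 and 1015 ± 242 TPM, though 48.5 and 44.8% of their sequence is shared, so the split between them is uncertain. Trac, the alpha constant gene, was at 1227 ± 274 TPM on a record shorter than 500 bases. The CD3 chains Cd3e (217 ± 35.5 TPM) and Cd3d (209 ± 36.6 TPM) and the zeta chain Cd247 (191 ± 29.4 TPM, 54.4% shared) were close to each other, within the SD of each. Cd3g stood at 958 ± 186 TPM, with 70.7% from a short transcript and 574 TPM without it. Ptprc (CD45), the phosphatase that sets the activity of Lck, was at 994, 553, 808 and 769 TPM. Lck, the kinase bound to CD4, was at 535, 481, 817 and 512 TPM and Cd4 itself at 401, 402, 623 and 435 TPM, with 35.5 and 56.5% from short transcripts. Downstream, the adaptor Lat was at 291 ± 41.3 TPM and the kinase Zap70 at 97.2 ± 15.2 TPM. The negative regulators Ptpn22 (161 ± 14.3 TPM) and Cd5 (213 ± 49.6 TPM) were in the same range. Unit 3 was the highest of the 4 for 17 of the 28 genes in CPM, and the list mean moved by 0.38 log2 units between units. The share of all genes highest in unit 3 was not counted. Genes of 55% GC or more, in any family, lay a median of 0.26 log2 units above their own mean in unit 3.

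Ptprc was spread over several records. Ptprc-204, with 29 exons, held 27.9, 52.8, 20.7 and 28.8% of its TPM and Ptprc-203, with an extra exon of 72 bases at chr1:138116954-138117025, held 23.1, 28.4, 40.1 and 30.8%. Their order differed between units, with Ptprc-204 ahead in units 1 and 2 and Ptprc-203 ahead in units 3 and 4. Cd44, the hyaluronan receptor that rises on activated cells, was at 27.4, 22.1, 24.7 and 22.4 TPM. Cd44-207 held 63.4% and Cd44-203 26.9% of Cd44 TPM. Cd44-201, which carries 5 further internal exons of 114 to 126 bases, held 14.8, 0.64, 4.36 and 2.92%, highest in unit 1, and is named here after its values were seen.

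The interleukin 2 receptor and its signalling chain were expressed throughout, and the cytokine itself was at most 0.15 TPM. Il2rg, the common gamma chain, was at 565, 573, 653 and 588 TPM, above Il2rb and Il2ra in every unit (28.7% of its sequence shared). The kinases that the receptor recruits were at 208 ± 37.3 TPM for Jak1 and 55.9 ± 14.1 TPM for Jak3. Of the STAT5 pair, Stat5b (54.5 ± 6.46 TPM) lay above Stat5a (28.8 ± 3.53 TPM) in every unit. The feedback inhibitors Socs3, Socs2 and Socs1 were at 67.3 ± 11.9, 29.9 ± 5.91 and 18.5 ± 1.90 TPM. Pim1, a kinase induced by STAT5, was at 141, 118, 134 and 172 TPM, whereas Pim2 was at 1.65, 12.1, 14.6 and 8.28 TPM. The parts of a unit disagreed for Pim2, with a within-unit SD of 1.18 in log2 CPM, so its order between units cannot be read. Il2 was at 0, 0, 0.14 and 0.15 TPM, from 8 reads over the 4 units. In all, 19 of the 22 genes reached 10 TPM.

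Of 24 costimulatory and inhibitory receptors, 20 reached 10 TPM. Cd27, a TNF receptor of naive and memory cells, was at 279, 336, 439 and 283 TPM, above the classical costimulator Cd28 at 107, 96.0, 108 and 126 TPM in every unit. After Ctla4 the inhibitory receptors were led by Cd96 (98.1 ± 13.2 TPM), Vsir, which encodes VISTA (84.9 ± 22.3 TPM), and Btla (83.5 ± 7.99 TPM), which did not separate beyond their spread. Icos, the costimulator of effector-type cells, was at 45, 44.7, 36.3 and 43.7 TPM. The checkpoint receptors Lag3 (10.7 ± 2.72 TPM) and Pdcd1, which encodes PD-1 (9.75 ± 1.42 TPM), were near 10 TPM, and Havcr2 (TIM-3) was at 0.52 ± 0.44 TPM. Inhibitory receptors thus ranged from one of the more abundant surface genes to one under 1 TPM.

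Among 22 suppressive mediators none reached 100 TPM and 9 reached 10 TPM, with a median of 4.93 TPM. The galectins Lgals9 (87.1 ± 17.1 TPM) and Lgals1 (86.3 ± 19.1 TPM), which are secreted and bind glycans, were the highest. Tgfb1, the main TGF-beta of lymphocytes, was at 43.9, 60.4, 70.8 and 46.8 TPM, against 0.37 ± 0.082 TPM for Tgfb3 and 0.26 ± 0.29 TPM for Tgfb2. Il10, the suppressive cytokine of effector regulatory cells, was at 5.58, 4.53, 2.32 and 6.64 TPM. Of the chains of interleukin 35, Ebi3 was at 5.58, 5.45, 6.10 and 3.22 TPM and Il12a at 0.12, 0, 0.08 and 0.64 TPM, the latter from 10 reads in all. The granule proteins Gzmb and Prf1 were at 3.34 ± 0.2 and 1.69 ± 0.81 TPM. Areg, a growth factor of tissue-resident cells, was at 2.77, 0.66, 0.42 and 4.95 TPM and higher in units 1 and 4. Hmox1, a heme-degrading enzyme also made by macrophages, was at 43.7, 0.94, 0.98 and 5.38 TPM. The myeloid genes counted above were mostly highest in unit 1 too, and their part in its level was not tested.

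Most cytokines of effector T cells were low or absent, with 19 under 10 TPM. Of 27 genes, 12 stayed under 1 TPM and 8 reached 10 TPM. The highest were lymphotoxin beta, Ltb (199, 286, 336 and 240.1 TPM), Mif (78.9 ± 13.5 TPM, 56.4% shared with pseudogene or other copies) and lymphotoxin alpha, Lta (39.5 ± 6.14 TPM). Tnf was at 13.9 ± 2.25 TPM and Cd40lg, the ligand by which helper cells activate B cells, at 22.7 ± 3.28 TPM. Signature cytokines of helper subsets were at 6.83, 3.0, 1.66 and 4.71 TPM for Ifng, 1.65, 0.22, 1.66 and 1.54 TPM for Il4 and 2.24, 0.22, 0.29 and 0.23 TPM for Il21. Il17a, Il9, Il6 and Il3 had 0 reads in all 4 units, which allows up to 0.035 CPM. Il17f, the neighbour of Il17a in family and function, was detected at 5.85, 3.53, 4.61 and 2.57 TPM. Ltb alone gave more than any 2 other genes of the list, and the whole list summed to 449.6, 520.4, 603 and 485 TPM.

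The transcription factors were led by those of the naive and general T cell program. Ets1, a factor of T cell survival and Foxp3 expression, was at 414, 354, 474 and 443 TPM. Tcf7 (TCF1) and Lef1, the Wnt-linked factors of naive T cells, were at 226, 337, 369 and 263 and 66.9, 99.5, 95.8 and 94.7 TPM. Satb1, a chromatin organizer of the regulatory T cell lineage, was at 128, 139, 154 and 139 TPM. Foxo1, which keeps T cells quiescent and drives homing genes, was at 45.3 ± 4.91 TPM and Nfatc3, Nfatc1 and Nfatc2 were at 66.1 ± 6.38, 43.6 ± 4.73 and 14.8 ± 2.53 TPM. Id3 (35.5 ± 6.03 TPM), the inhibitor of E proteins in resting regulatory cells, and Id2 (28.7 ± 6.33 TPM), its counterpart in effector cells, overlapped between units. Tcf7 and Lef1 were lowest in unit 1, and Ets1 and Satb1 varied little.

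Factors of effector programs were lower. Maf (29.9 ± 4.74 TPM), Batf (21.2 ± 1.05 TPM) and Irf4 (10.8 ± 0.85 TPM), which drive effector regulatory cells, were above 10 TPM, whereas Prdm1 (Blimp-1), which marks their end stage, was at 3.07 ± 0.44 TPM. Bcl6, the follicular factor, was at 10.2 ± 1.14 TPM. Of the factors that define helper lineages, Gata3 of T helper 2 cells was the exception. It was at 66.2, 35.2, 104 and 46.7 TPM, with 51.7% from short transcripts, while its CPM were 100.3, 102, 98.2 and 115. Tbx21 of T helper 1 cells was at 1.53 ± 0.39 TPM and Eomes of cytotoxic cells at 1.42 ± 0.33 TPM. Zbtb16 (PLZF), the factor of innate-like T cells, was at 0.055 ± 0.018 TPM.

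In the Ikaros family, the order of means was Ikzf1 (166 ± 28.8 TPM), Ikzf2 (111 ± 29.4 TPM), Ikzf3 (106 ± 27.4 TPM), Ikzf4 (33.6 ± 2.75 TPM) and Ikzf5 (25.4 ± 3.67 TPM). Those of Helios (Ikzf2) and Aiolos (Ikzf3) did not separate beyond their spread. Ikzf1 (Ikaros) lay above Ikzf3 in every unit, but 37.7% of it came from short transcripts, and without them the means were 212 and 217 TPM. Ikzf4 (Eos), a partner of Foxp3 in gene silencing, was steady, with an SD of log2 CPM of 0.07. All 12 NF-kB subunits and inhibitors reached 10 TPM. Nfkb1 (126 ± 18.2 TPM) was the leading subunit, ahead of Rela (36.0 ± 6.75 TPM) and of Rel, the subunit needed for thymic development of regulatory cells (37.2, 17.0, 22.9 and 30.5 TPM). The leading inhibitors were Nfkbia (133 ± 18.4 TPM) and the ubiquitin-editing enzyme Tnfaip3 (242, 32.2, 32.3 and 253 TPM), the latter high in units 1 and 4.

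Of 17 Kruppel-like factors, 5 reached 10 TPM. Klf2, which drives expression of S1pr1, was at 116, 102, 121 and 162 TPM, Klf3 at 85.5 ± 12.5 TPM and Klf13 at 47.9 ± 5.62 TPM. Klf6 was at 164, 52.9, 52.8 and 209.7 TPM and Klf4 at 10.4, 0.6, 0.81 and 9.71 TPM, both high in units 1 and 4. Klf14 and Klf17 had 0 reads.

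Homing receptors of recirculating cells were expressed in every unit. S1pr1, the receptor for exit, was at 146, 213, 235 and 194 TPM and Ccr7, the chemokine receptor of the T cell zone, at 68.3, 109, 126 and 91.6 TPM. Il7r, low on regulatory cells relative to other T cells by background knowledge, was at 70.3, 72.0, 82.2 and 73.5 TPM. Cd44, at 24.2 ± 2.48 TPM, lay below all 3 of these in each unit. Of 22 chemokine receptors, 7 reached 10 TPM and 9 stayed under 1 TPM. After Ccr7 came Cxcr4, a receptor for the bone marrow chemokine CXCL12, at 54.5, 15.4, 44.6 and 56.0 TPM. The receptors of skin, inflamed and follicular sites, Ccr4 (15.1 ± 3.50 TPM), Ccr2 (14.8 ± 2.92 TPM), Cxcr3 (12.8 ± 3.06 TPM) and Cxcr5 (13.1 ± 2.84 TPM), overlapped and could not be ordered. Ccr8, typical of tissue regulatory cells, was at 6.74 ± 1.94 TPM. Cxcr1 had 0 reads.

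Integrin chains covered a wide range of levels. Of 26 subunits, 8 reached 10 TPM, 9 lay between 1 and 10 TPM, such as Itgae and Itgb8 above, and 9 stayed under 1 TPM. The chains of LFA-1, Itgal and Itgb2, were at 147, 117, 169.5 and 123 and 141, 139.5, 216 and 155 TPM. Itga4, which pairs with Itgb1 or Itgb7, was at 185, 121, 159.6 and 163 TPM. Its partners Itgb7 and Itgb1 were at 197, 185, 292 and 189 and 88.8, 73.8, 64.5 and 75.1 TPM, with Itgb7 above Itgb1 in every unit. Itga6, the laminin receptor chain, was at 100.4 ± 9.63 TPM and Itgb3 at 15.5 ± 3.89 TPM. The myeloid alpha chains Itgam (0.25 ± 0.24 TPM, 47.9% short) and Itgax (0.36 ± 0.47 TPM) and the collagen receptor chains Itga1 (0.11 ± 0.087 TPM) and Itga2 (0.64 ± 0.17 TPM) were under 1 TPM.

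The proteins that switch integrins on were expressed in their leukocyte forms. Tln1, which encodes talin 1, the link between integrin tails and actin, was summed to 286, 63.7, 325 and 259 TPM, of which 69.1% came from short transcripts. The full coding form Tln1-201 (57 exons) was at 63.8, 53.0, 95.1 and 62.1 TPM, and a processed record of 283 bases, Tln1-204, at 185, 9.86, 189.5 and 163 TPM. Unit 2 was low in summed TPM through the short record, while its full form was nearer to units 1 and 4, and the CPM of the gene were 615, 531, 882 and 634. Tln2 was at 0.044 ± 0.036 TPM. Fermt3, the kindlin of blood cells, was at 67.8, 76.8, 109.8 and 65.0 TPM against 0.5 ± 0.31 TPM for Fermt1 and 0 reads for Fermt2. Of the Rap1 pathway, Rap1b was at 214 ± 21.6 TPM, Rap1a at 78.7 ± 14.0 TPM (14.6% shared), the Rap effectors Apbb1ip (RIAM) and Rassf5 (RAPL) at 88.9 ± 4.88 and 124 ± 18.7 TPM, and the activator Rasgrp2 at 337 ± 62.2 TPM. Fyb, the adaptor ADAP, was at 682, 463, 591 and 559 TPM and its partner Skap1 at 166 ± 23.5 TPM. Vcl, which encodes vinculin, was at 0.56 ± 0.1 TPM. Of the 31 genes of this list, 24 reached 10 TPM.

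Outside ribosomal protein and mitochondrial genes, the most abundant coding genes served translation, the actin skeleton and antigen presentation. Eef1a1, the elongation factor that brings tRNA to the ribosome, was at 6828, 10049.9, 11149 and 7277 TPM (43.6% shared with copies) and Tpt1, a translationally controlled protein, at 4778, 6635, 5335 and 5643 TPM. Tmsb4x, which binds actin monomers, was at 4063, 4267, 4661 and 4592 TPM and varied little. Actb, a gene often used as a reference, was at 1025, 1654, 3036 and 1093 TPM and was not steady here, with an SD of log2 CPM of 0.56. Coro1a, an actin regulator of lymphocytes, was at 1501 ± 471 TPM (34.3% short). The remaining members of the first 20 included Ddx5, Rack1, Ms4a4b, Shisa5, Ly6e, Eef1b2 and Smc4, between 1019.7 and 1852 TPM. Hnrnph1 and Psme2 ranked among them through short transcripts, which gave 71.3 and 85.9% of their TPM, and Rps27rt is a near copy of a ribosomal protein gene (91.3% shared). Cytosolic ribosomal protein genes (84 genes) held 9.70, 11.1, 11 and 10.7% of TPM.

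All 11 class I presentation genes passed 100 TPM. B2m, the light chain, was at 3122, 2774, 2966 and 3431 TPM, and the heavy chains H2-K1 and H2-D1 were at 1897 ± 200.2 and 1469 ± 184 TPM, with 24.2 and 26.8% of their sequence shared and, for H2-D1, 45% of TPM from short transcripts. Tap1, of the peptide transporter, was at 212 ± 42.0 TPM and the immunoproteasome subunit Psmb8 at 179 ± 41.8 TPM. The GIMAP GTPases, which support survival of resting lymphocytes, were likewise abundant. Gimap4 (716, 815, 847 and 803 TPM), Gimap3 (637, 725, 971 and 620.3 TPM) and Gimap6 (876, 713, 794 and 1086 TPM, 32.4% short) led, and the lowest of the 8, Gimap5, was at 86.5 ± 17.3 TPM (35.0% short).

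Survival was represented by Mcl1 at 213, 234, 194 and 232 TPM and Bcl2 at 77.9, 63.4, 79.3 and 80.6 TPM, both steady, with Bcl2l1 (BCL-XL) at 20.9 ± 3.02 TPM. Their antagonist Bcl2l11 (BIM) was at 33.7 ± 10.4 TPM and the effectors Bax and Bak1 at 51.7 ± 4.71 and 19.3 ± 2.43 TPM. Pmaip1 (NOXA), which counters MCL1, was at 15, 3.92, 3.71 and 15.4 TPM and was again high in units 1 and 4. Of 21 glycolytic genes, 16 reached 10 TPM, led by Gapdh (465 ± 61.2 TPM), Eno1 (363 ± 132 TPM) and Ldha (194 ± 32.7 TPM), of which 28.1, 27.0 and 19.1% of sequence is shared. Hexokinase was mostly Hk1 (31.5 ± 5.91 TPM) and Hk2 was at 2.11 ± 0.69 TPM. The glucose transporter Slc2a3 was at 39.6 ± 15.1 TPM and Slc2a1 at 13 ± 2.93 TPM. 14 of the 18 members at 10 CPM or more were highest in unit 3, where the share of all genes was not counted.

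Genes of dividing cells were low to moderate, with 14 of 30 at 10 TPM or more. Mki67, a protein of dividing cells, was at 16.6, 5.12, 6.19 and 5.21 TPM and Top2a, the mitotic topoisomerase, at 47.0, 23.6, 22.8 and 22.4 TPM, both highest in unit 1. Rrm2, which makes deoxynucleotides for S phase, was at 20.2, 12.9, 7.96 and 6.22 TPM. The mitotic genes Ccnb1, Plk1 and Aurka were at 4.35 ± 2.05, 2.47 ± 1.22 and 2.37 ± 1.04 TPM, while the G1 cyclins Ccnd3 (201 ± 30.3 TPM, 59.5% short) and Ccnd2 (82.4 ± 13.1 TPM), which do not require division, were higher. Interferon-response genes were present at a moderate level, with 23 of 28 at 10 TPM or more. Irf7 was at 55.5, 60.8, 95.2 and 60.8 TPM, Irf9 at 79.4 ± 11.3 TPM, Isg15, a ubiquitin-like modifier, at 18.1, 19.2, 27.1 and 21.7 TPM and Ifit1, a sensor of foreign RNA, at 11, 16.5, 20.2 and 13 TPM. Of the 27 members at 10 CPM or more, 18 were highest in unit 3, but the list mean moved by only 0.36 log2 units, and by 0.15 without unit 3. The share of all genes highest in unit 3 was not counted.

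Genes of other splenic cells were measured from lists of their markers. For B cells, the heavy-chain constant gene Ighm was at 418, 748, 481 and 221 TPM and the kappa constant gene Igkc at 1693, 3599, 822 and 244 TPM, the latter on a record under 500 bases. Jchain, of antibody-secreting cells, was at 145, 221, 50.5 and 20.4 TPM. Defining surface and nuclear genes were low: Ms4a1 (CD20) was at 6.89, 2.64, 1.30 and 3.18 TPM and Pax5 at 4.94, 1.58, 0.055 and 0.71 TPM, 73.2% of the latter short. Ighm, Igkc and Jchain were highest in unit 2 and lowest in unit 4, and Ms4a1 and Pax5 were highest in unit 1. The split did not follow gene class, since Ighd (8.09, 3.23, 3.89 and 3.62 TPM) was highest in unit 1 and Cd79b (9.42, 12.1, 10.8 and 6.84 TPM) in unit 2. The list summed to 2321, 4424, 1366 and 551 TPM, most of it Igkc in units 1 to 3, and 5 of the 20 B cell genes reached a mean of 10 TPM. Of the plasma cell genes, Sdc1 (CD138) was at 0.6, 0.35, 0.7 and 0.21 TPM and Tnfrsf17, the survival receptor BCMA, at 0, 1.32, 0.077 and 0 TPM.

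Macrophage genes were highest in unit 1. C1qa, a complement component of tissue macrophages, was at 13.2, 0, 0.2 and 1.63 TPM, Csf1r, the receptor for their growth factor, at 11.2, 0.2, 0.34 and 1.68 TPM, and Adgre1 (F4/80) at 4.98, 0.013, 0.095 and 1.01 TPM. Vcam1 and Slc40a1, the iron exporter, both known in red pulp macrophages, were at 24.9, 0.12, 0.27 and 2.62 and 53.6, 3.09, 0.32 and 3.55 TPM (39.2% short for Slc40a1). Spic, their transcription factor, was at 17.6, 2.87, 4.24 and 5.42 TPM and Cd68, a lysosomal protein of macrophages, at 10.6, 6.89, 3.29 and 4.32 TPM, with smaller gaps between units. The summed myeloid list was 333, 175, 179 and 189 TPM, but Ctss alone gave 157, 159, 160.2 and 147 TPM of it in all units and did not follow the other genes. Neutrophil genes summed to 30.1, 1.63, 2.65 and 8.73 TPM and were likewise highest in unit 1, then unit 4.

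Erythroid genes were higher in units 1 and 2 than in units 3 and 4. Hbb-bs and Hba-a2, globin genes with near copies (54.4 and 92.6% shared), were at 51.8, 25.7, 2.15 and 12.7 and 42.4, 25.3, 1.89 and 13.9 TPM (49.8% short for Hbb-bs). Car2, a carbonic anhydrase of red cells among others, was at 8.69, 11.6, 1.56 and 1.75 TPM. Cd8a, which defines CD8 T cells, was at 1.38, 0.64, 0.79 and 1.12 TPM and Cd8b1 at 9.31 ± 2.32 TPM. The natural killer receptor Ncr1 was at 0.52, 0.31, 0.3 and 0.15 TPM. Among dendritic cell genes Siglech was at 1.47, 0.57, 0.84 and 1.97 TPM and Flt3 at 0.061, 0, 0.057 and 0.074 TPM, and the list sum came mostly from Bst2 and Ccr9, which T cells also express. The basophil gene Mcpt8 was at 0.018 ± 0.036 TPM and Fcer1a, of mast cells and basophils, had 0 reads. Of the stromal list 11 of 12 genes were under 1 TPM, with Pecam1 the exception at 78 ± 15 TPM. The 4 identity genes together gave 965, 572, 705 and 843 TPM, below the B cell sum in units 1 to 3 and above it in unit 4, and above the myeloid sum in every unit. Transcripts of at least 500 bases, which leave out Igkc, gave a mean B cell sum of 1155 TPM. Ctla4, Il2ra, Ikzf2 and Foxp3, at 752, 398, 228 and 209 TPM on these transcripts, together lay above it. The part of other cells in the levels of T cell genes was not tested.

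**Figure D3:**
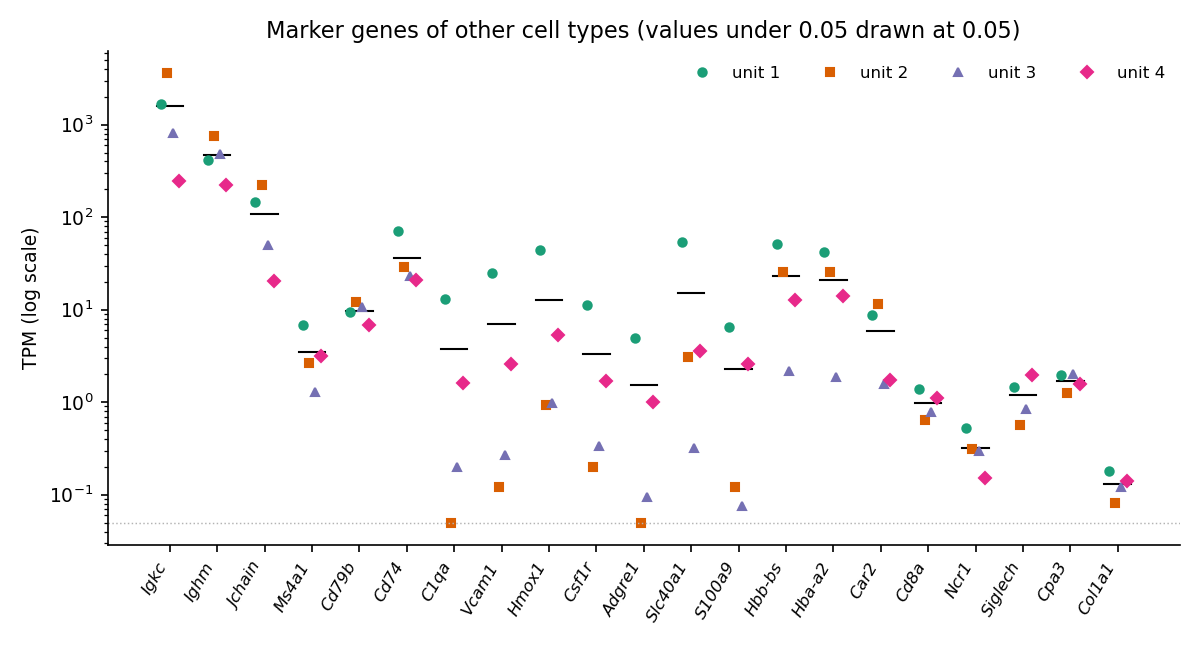
TPM on a log scale for each control unit (symbols by unit, black line at the mean) for marker genes of B lineage, macrophage, neutrophil, erythroid, CD8 T, natural killer, dendritic, mast and stromal cells. Macrophage genes such as C1qa lie far higher in unit 1 (13.2 TPM) than in units 2 and 3, and Igkc spans 244 to 3599 TPM.

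The Y-linked genes Ddx3y and Eif2s3y were at 0.27 ± 0.26 and 0.061 ± 0.035 TPM, from 50 and 10 reads over the 4 units. Kdm5d and Uty, also Y-linked, were at 8.46, 5.40, 6.0 and 7.06 and 3.46, 0.82, 1.73 and 2.11 TPM, with 4.59 and 3.28% of their sequence shared. The genotype implies female mice, as given above, so these levels are not read as expression from a Y chromosome. The source of the Kdm5d and Uty reads was not tested.

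Spread between units was examined on 8833 genes with a mean of at least 10 CPM, after scaling by the trimmed mean of M values (TMM). The median SD of log2 CPM was 0.20, with 5th and 95th percentiles of 0.07 and 0.48. The biological coefficient of variation, the relative SD of true levels between units, was 0.198 over all these genes. The highest and lowest units differed by at least 2-fold for 512 genes (5.8%) and by at least 4-fold for 99. Without unit 1 the 2-fold count was 292, and without unit 2 it was 284. Among genes with under 10% shared sequence it was 322.

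The units did not vary independently. Units 1 and 4 were the most alike, with a median absolute difference of 0.14 in log2 CPM and 91 genes 2-fold apart, and units 1 and 2 the least, with 0.27 and 307 genes. Of the 512 variable genes, 233 had units 1 and 4 as the higher pair and 135 had units 2 and 3, and the remaining 4 pairings took 16 to 54 genes each. The first principal component held 60.4% of the variance and set units 1 and 4 against units 2 and 3. Units 1 and 4 also had the fewest reads, 13017008 and 13627264 against 21114813 and 39706502 in units 2 and 3. This split therefore cannot be told apart from one of sequencing depth.

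**Figure D4:**
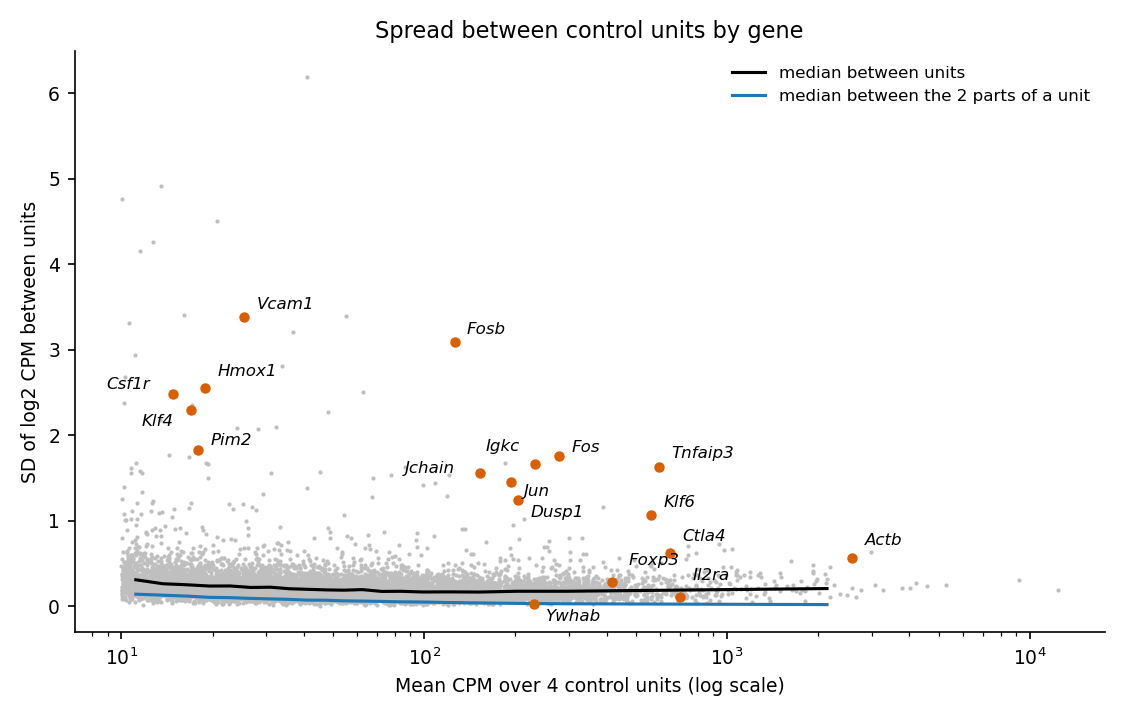
SD of log2 CPM between the 4 control units against the mean CPM (log scale) for each gene at 10 CPM or more, as gray points with labelled genes in orange, the median between units as a black line and the median between the parts of a unit as a blue line. Most genes lie under 0.48, the 95th percentile, Fosb and Vcam1 lie above 3, and the blue line stays under the black one.

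Some of the largest spreads came with disagreement inside a unit. The 20 genes of largest SD were taken by rule, leaving out pseudogenes and receptor segments. For Rpl13a, Slc4a1ap, Pim2 and Pde2a the parts of 1 unit disagreed with each other, with within-unit SDs of 3.34, 1.85, 1.18 and 1.14 in log2 CPM, against a median of 0.064 over all genes. Much sequence of Pde2a, Hspa1a and Hspa1b (90.5, 70.1 and 68.1%) and all of a second record of the symbol Zc3h11a is shared with another gene. Lrp1 also differed between parts, with a within-unit SD of 0.70. The rest were Vcam1, Mrc1, Slc40a1, Hmox1, Csf1r, Sirpa and Mpeg1, all highest in unit 1, Fosb, Fos and Nr4a2 of the early response list, Klf4, and Car1, a carbonic anhydrase of red cells, at CPM of 16.9, 47.2, 3.25 and 1.19.

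At the other end, 10 genes of at least 100 CPM had an SD of 0.02. They were Mtmr6, Tbk1, Klf7, Slmap, Cpsf7, Ywhab, Etv3, Fam91a1, Irf2 and Sp4. Tbk1, a kinase of innate sensing, had CPM of 118, 115, 116 and 114. Cpsf7, which helps set the ends of messages, had 231, 234, 237 and 228 CPM, and Irf2, a brake on interferon genes, 125, 124, 124 and 128 CPM. By contrast Actb had 1651, 3233, 3603 and 1855 CPM, with a range of 2.18-fold, and Gapdh 174, 206, 228 and 192 CPM.

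The early response genes, which cells switch on within minutes of a stimulus, were among the lists that moved most between units. Their list mean was 7.46, 6.56, 6.35 and 7.68 in log2 CPM over the 30 members at 10 CPM or more, a range of 1.33. Of these, 16 had a range of at least 2-fold, against 5.8% of all genes, and 20 were highest in unit 4 and 4 in unit 1. The range was 1.07 to 1.37 with any 1 unit left out. The regulatory T cell signature moved by 0.13. The 4 identity genes alone moved by 0.53, with a mean of 9.62, 9.09, 9.25 and 9.48 that was higher in units 1 and 4.

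Among the AP-1 factors, Fosb was at 243, 6.98, 5.15 and 248 CPM, Fos at 454, 73.0, 50.5 and 534 CPM and Jun at 290.3, 62.9, 52.8 and 369 CPM. All 3 were several times higher in units 1 and 4 than in units 2 and 3, with no overlap. Junb followed the same order more weakly, at 371, 219.8, 164 and 569 CPM, as did Jund (128, 101, 88.3 and 189 CPM), while Fosl1 stayed low at 1.37, 1.63, 1.46 and 1.12 CPM. Feedback inhibitors moved in the same units: Tnfaip3 was at 974, 156, 139 and 1110.4 CPM, Dusp1, a phosphatase of MAP kinases, at 307, 70.0, 81.4 and 359.6 CPM and Ppp1r15a, of the stress response, at 256, 118, 80.6 and 333 CPM. Nr4a2, an orphan nuclear receptor, was at 39.5, 3.49, 3.69 and 49.5 CPM and its range (14.0-fold) was wider than that of Fos (10.6-fold). The related Nr4a1, a reporter of receptor signals, was at 221, 119, 122 and 308 CPM and Klf6 at 744, 259, 234 and 1005 CPM. Cd69, the early activation antigen that retains cells in tissue, was at 189, 94.2, 92.9 and 262 CPM. Ctla4 itself had 871, 453, 386 and 874 CPM, with units 1 and 4 again above units 2 and 3.

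Other members of the list moved less. Egr1 was at 70.7, 95.8, 76.5 and 80.1 CPM, Egr2, which follows T cell receptor signals, at 26.9, 31.3, 24.0 and 23.5 CPM, and Ier2 at 51.1, 80.4, 65.1 and 70.7 CPM. Zfp36, which destabilizes cytokine messages, was at 402, 360.4, 317 and 429.7 CPM and Dusp2 at 129, 186, 165 and 145 CPM. Egr1 and Dusp2 were highest in unit 2. The list therefore did not move as 1 block.

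Heat shock genes showed the same units, with a narrower set of members. The list mean was 7.24, 6.05, 6.13 and 7.20 in log2 CPM over 19 members, and 5 of these had a 2-fold range. Hspa1b, an inducible HSP70, was at 73.6, 0.76, 3.95 and 69.0 CPM and its near copy Hspa1a at 21.6, 0, 0.052 and 18.5 CPM. Dnaja1, an HSP40 co-chaperone, was at 402, 181, 155 and 464 CPM and Hsph1 (HSP105) at 70.7, 37.1, 21.8 and 65.8 CPM. The constitutive Hsp90ab1 was at 1221, 900.1, 1150.3 and 1162 CPM and Ahsa1, an activator of HSP90, at 56.6, 57.7, 59.5 and 54.5 CPM, so these hardly moved. The range of the list mean was 1.19 and came to 0.51 without genes of shared sequence, to 0.75 without unit 1 and to 0.74 without unit 4.

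**Figure D5:**
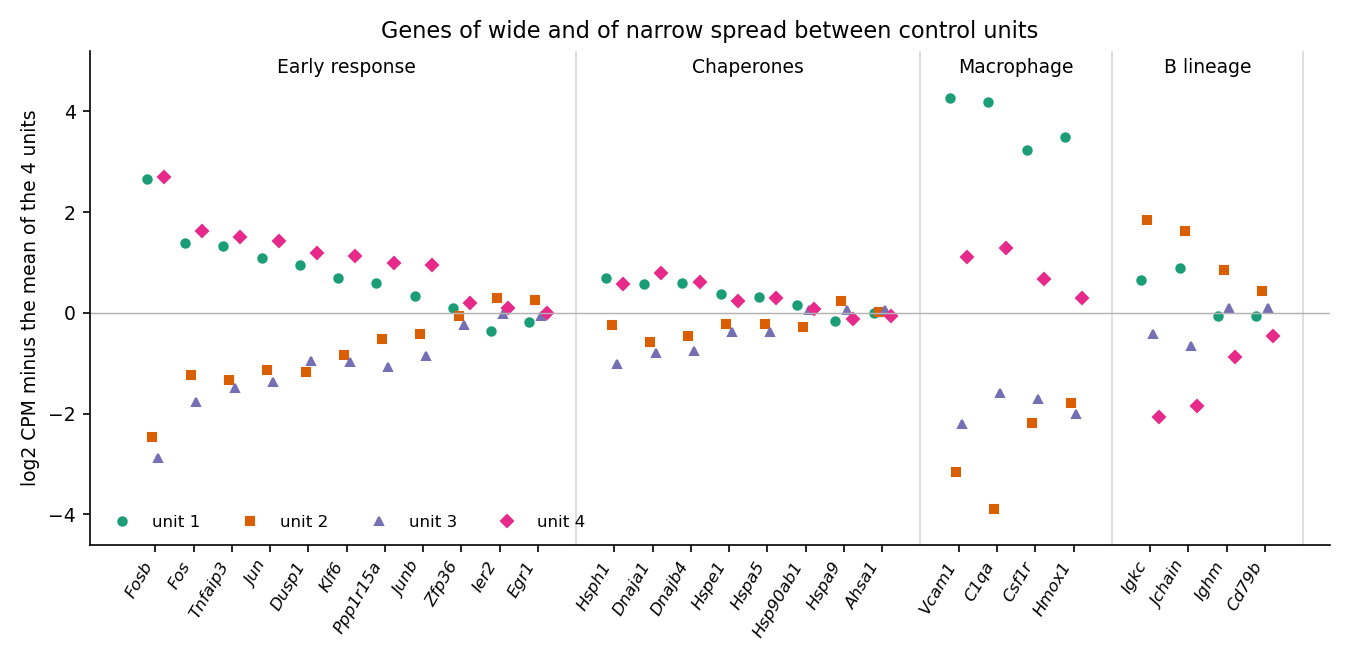
Log2 CPM of each control unit minus the mean of the 4 units (symbols by unit, 0 at the mean) for genes of wide and narrow spread in the early response, chaperone, macrophage and B lineage groups. Units 1 and 4 lie above 0 and units 2 and 3 below it for Fosb, Fos and Jun, unit 1 is highest for the 4 macrophage genes, and Ahsa1 lies close to 0 in all 4 units.

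The promoters of these genes were searched for known elements. Sequences are shown for all early response genes that hold either of the last elements searched. They are also shown for 3 of the heat shock genes with a wide spread between units. The RefSeq table (GRCm38.p6) holds 32851 promoters of 300 bases, from 250 before to 50 after a start. Searched on both strands were the heat shock element as GAANNTTC, the cyclic AMP response element as TGACGTCA and the CArG box, which serum response factor binds. The heat shock element occurred in 11 of 23 promoters of the heat shock list (47.8%), from 10 of 17 genes in the table, and in 7.86% of all promoters. The cyclic AMP element occurred in 4 of 34 promoters of the early response list (11.8%, 1.79% of all), from 4 of 27 genes. The CArG box occurred in 6 (17.6%, 1.63% of all), but from only 3 genes, since Egr2 has several promoters in the table. Each stretch runs from 20 bases before the match to 10 bases from the start, with the match in capitals.
Hspa1a, chr17:34972147-34972280, minus strand: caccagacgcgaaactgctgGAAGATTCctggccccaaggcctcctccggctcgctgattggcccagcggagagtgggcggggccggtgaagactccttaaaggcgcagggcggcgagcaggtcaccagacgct
Hspa1b, chr17:34959229-34959362, minus strand: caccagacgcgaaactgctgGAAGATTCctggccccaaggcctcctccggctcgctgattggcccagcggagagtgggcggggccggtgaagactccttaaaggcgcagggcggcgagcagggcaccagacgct
Dnaja1, chr4:40722324-40722477, plus strand: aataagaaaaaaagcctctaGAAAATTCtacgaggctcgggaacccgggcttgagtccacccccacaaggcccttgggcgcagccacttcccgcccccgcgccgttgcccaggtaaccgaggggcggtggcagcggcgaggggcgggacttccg
Dusp1, chr17:26508463-26508635, minus strand: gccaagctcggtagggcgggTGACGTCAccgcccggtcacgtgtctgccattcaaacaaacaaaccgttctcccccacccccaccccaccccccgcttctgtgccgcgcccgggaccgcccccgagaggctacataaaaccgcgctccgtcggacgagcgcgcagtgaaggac
Ppp1r15a, chr7:45526259-45526300, minus strand: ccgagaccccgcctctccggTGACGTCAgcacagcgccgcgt
Btg2, chr1:134079146-134079341, minus strand: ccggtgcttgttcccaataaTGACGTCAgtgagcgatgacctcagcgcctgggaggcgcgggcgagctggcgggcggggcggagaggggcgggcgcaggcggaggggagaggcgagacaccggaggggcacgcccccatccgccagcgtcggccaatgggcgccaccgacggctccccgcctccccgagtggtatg
Nfkbid, chr7:30422335-30422415, plus strand: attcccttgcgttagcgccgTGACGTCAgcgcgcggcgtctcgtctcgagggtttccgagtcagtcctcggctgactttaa
Zfp36, chr7:28379219-28379306, minus strand: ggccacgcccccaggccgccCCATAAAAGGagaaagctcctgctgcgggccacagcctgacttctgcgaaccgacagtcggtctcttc
Egr2, chr10:67537474-67537575, plus strand: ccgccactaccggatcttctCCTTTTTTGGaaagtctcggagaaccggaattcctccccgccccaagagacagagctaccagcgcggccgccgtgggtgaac
Dusp5, chr19:53529043-53529154, plus strand: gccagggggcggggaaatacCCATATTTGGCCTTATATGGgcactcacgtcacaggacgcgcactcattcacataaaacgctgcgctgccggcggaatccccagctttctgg
Hspa1a and Hspa1b have nearly the same promoter, and the heat shock element lies 104 bases before the start in both. It lies 124 bases before that of Dnaja1, while that of Hsph1 lies 20 bases after the start and is not shown. Bag3, Chordc1, Fkbp4, Hspb1, Hspd1 and Hspe1 also hold the element and are not shown. Their CPM ranged by 1.87, 1.52, 1.28, 1.85, 1.36 and 1.69-fold between units, with Fkbp4 highest in unit 3 and Hspb1 on 16 reads. Dnajb4 has a promoter in the table without the element and ranged by 2.59-fold, higher in units 1 and 4. The cyclic AMP element lies 143, 12, 166 and 51 bases before the starts of Dusp1, Ppp1r15a, Btg2 and Nfkbid. These genes were higher in units 1 and 4, as was the mean of the whole early response list. Fos, Nr4a2, Tnfaip3 and Junb have promoters in the table with neither this element nor the CArG box, and were also higher in those units. Btg2, an inhibitor of proliferation, was at 292, 192, 197 and 371 CPM and Nfkbid, a nuclear regulator of NF-kB, at 63.4, 51.0, 52.2 and 70.5 CPM. The CArG box lies 58 and 72 bases before the starts of Zfp36 and Egr2, and Dusp5 holds a pair of them side by side, 82 and 72 bases before its start. The CPM of Zfp36 and Egr2 ranged by 1.36 and 1.33-fold between units, and that of Dusp5, a nuclear MAP kinase phosphatase, by 2.63-fold, at 68.1, 44.7, 47.2 and 118 CPM. Zfp36 and Dusp5 were also higher in units 1 and 4 than in units 2 and 3. A match is a description of the letters and not a measured site.

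Macrophage and immunoglobulin genes also differed between units. In CPM, Vcam1 was at 90.0, 0.48, 0.96 and 9.98, Mrc1, the mannose receptor, at 36.8, 0.14, 0.68 and 4.92, Lrp1, a scavenger receptor, at 36.2, 0.48, 1.01 and 3.43, and Sirpa, which binds CD47, at 34.2, 1.05, 0.99 and 4.69. All 4 were highest in unit 1 and next highest in unit 4. Igkc was at 237, 544, 112 and 36.0 CPM and Jchain at 195, 321, 66.0 and 29.0 CPM, in the order of units 2, 1, 3 and 4. Early response genes such as Fos were high in both units 1 and 4. Vcam1, Mrc1, Lrp1 and Sirpa were also higher in units 1 and 4 than in units 2 and 3, but several times lower in unit 4 than in unit 1. The part of other cells in the early response and heat shock values was not tested.

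Base composition moved with the units. Genes under 40% GC deviated from their own mean by a median of 0.09, 0.01, -0.18 and 0.08 log2 units, and genes of 55% GC or more by -0.18, 0.03, 0.26 and -0.09. Units 1 and 3 thus lay at opposite ends. With GC content and length taken out by a fitted trend, 428 genes had a 2-fold range and the early response range was 1.54. Transcripts annotated as retained introns held 8.91, 6.63, 7.53 and 8.03% of reads, highest in unit 1.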

How the data were processed

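Trizol-extracted RNA of sorted splenic regulatory T cells was sequenced from non-stranded TruSeq libraries, per the labels' protocols, so genes that overlap an antisense gene are uncertain. Each sample's estimated counts per transcript and its TPM values were deposited by the authors, who used kallisto with GRCm38 per the submitters' processing notes. Which annotation and which kallisto release were used is not given in the sources used here. Transcript lengths and effective lengths were deposited in the same tables per the file headers.

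Transcripts were joined to genes by identifier with GENCODE release 21. Of 88198 transcripts, 2079 had no gene there, with at most 1.27% of reads. Counts of the parts of a unit were added and their TPM were added and rescaled to a total of 1000000. CPM used TMM scaling in edgeR 4.0.16 (R 4.3.3) on counts rounded to whole numbers, and log2 CPM added a prior count of 1. Summaries of spread and list means in log2 CPM used genes averaging 10 CPM or more. The script was tested on simulated data. No groups were compared, since 1 group is described, and reported levels were screened for an outlying unit with Dixon's gap ratio (critical value 0.829). Genes were named by rule: the population markers, the 20 most abundant coding genes, the 8 highest of each list and any at 10 TPM or more, members of known role under 1 TPM, and the 20 largest and 10 smallest spreads. Members between 1 and 10 TPM outside the 8 highest were chosen after their values were seen. All members and lists were chosen with earlier results of these data known. Shared sequence is the percent of 31-base words of a gene also found in another. Python 3.11.15, pandas 2.3.3, numpy 2.4.6 and matplotlib 3.10.9 were used. Alternatives covered short transcripts, length scaling, thresholds, normalization (DESeq2 1.42.0), filters, parts and each unit left out. Floors of 3 counts cover counting error only. Some genes of the lists are not reported here.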

Additional observations from a re-analysis of the deposited data

Results flagged for a closer look

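Values in which 1 unit lay far from the other 3 were sought among 281 reported levels, sums and shares, and 34 were found (12.1%). Some of the screened genes were named for their large spread or after their values were seen. The share found is therefore not set against a chance rate. The number after each name is the gap to the nearest unit as a fraction of the whole range.

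Macrophage genes were among those set apart by a high unit 1. The genes highest there were C1qa (0.877), Csf1r (0.865), Ddx3y (0.887), Hmox1 (0.896), Ighd (0.864), Il21 (0.965), Lrp1 (0.848), Mki67 (0.907), Mrc1 (0.900), Sirpa (0.923), Slc40a1 (0.939), Top2a (0.951) and Vcam1 (0.899). They include Mki67 and Top2a of dividing cells. The summed myeloid list (0.911) and the summed CD8 T and NK list (0.907) were also far higher in unit 1. Fcer1g, at 14.9, 1.48, 0.89 and 5.26 TPM, is on both of these lists. In TPM, 10 of the 14 members of the CD8 T and NK list were highest in unit 1. Cd8b1, its only member averaging 10 CPM or more, was lowest in unit 1 at 9.39 CPM and highest in unit 2 at 18.1 CPM. Whether unit 1 held more CD8 T or NK cells was not tested. The naive T cell factor Lef1 (0.853) was lowest in unit 1.

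Unit 3, the most deeply sequenced, was the high unit for Cd4 (0.847), Il2rb (0.887), Irf7 (0.866), Itgb3 (0.914), Itgb7 (0.888), Klf13 (0.85), Lck (0.839), Lrrc32 (0.854), Mcpt8 (1.000) and Pecam1 (0.855), and for the summed stromal and endothelial list (0.873), which Pecam1 dominates. The costimulator Icos (0.851) was lowest in unit 3. Unit 2 was high for Tnfrsf17 (0.942) and low for Bcl2 (0.843), Il4 (0.917) and Plagl1 (0.833). The share of Tln1-204 within its gene was lowest in unit 2 (0.868). The share of Tln1-201 within its gene was highest in unit 2 (0.887). Il21, Ddx3y, Il4, Tnfrsf17 and Mcpt8 rest on 77, 50, 47, 23 and 2 reads over the 4 units.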

How the results depend on the processing

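Of 253 values under alternatives, 211 moved by less than the spread between units or, for counts, by less than 1.5 times, and 42 moved by more. On transcripts of at least 500 bases the count of genes at 100 TPM or more was 1789, the share in the 100 most abundant genes 32.2% and that in ribosomal protein genes 9.48%, and the means of Foxp3, Il2ra, Ctla4 and Ikzf2 were 209, 398, 752 and 228 TPM. As reads per kilobase of the longest transcript they were 251, 364, 774 and 274, and the 100 genes held 33.8%. As shares of estimated counts, ribosomal protein genes held 4.22% and mitochondrial genes 4.12%. Genes with a 2-fold range numbered 2646 at 1 CPM, 142 at 50 CPM, 8979 with no filter, 322 with under 10% shared sequence, and 284 to 433 with 1 unit left out. With no filter the median SD was 0.382, and the biological coefficient of variation was 0.378, or 0.308 at 1 CPM. The heat shock range was 0.40 at 50 CPM, 0.51 with under 10% shared sequence, 0.78 in part 2 alone and 0.74 to 1.18 with 1 unit left out, and the interferon range 0.15 to 0.32 with 1 unit left out. Of 72 values for summed lists of other cells, 12 moved. On transcripts of at least 500 bases the mean B cell sum was 1155 TPM against 2165 in the main setting. It then lay below the sum of the 4 identity genes, the reverse of the order of the main means. Fewer genes entered under stricter filters, and otherwise the cause was not tested. No paired analysis was possible because a single group is described, and the replicate block was not run. Genes under about 1 CPM rest on few reads in units 1 and 4.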

Other observations

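Ribosomal protein genes carry, by background knowledge, a pyrimidine-rich start through which their messages are controlled. The letters CTTTCC within 5 bases of the start occurred in 8 of 76 RefSeq promoters of these genes (10.5%), among them Rpl15, Rpl35 and Rps27, and in 0.584% of all promoters. TATAA occurred in 38.2% of promoters of the early response list and 24.9% of all.

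Further genes differed between units outside the lists of T cell function. Cr2, the complement receptor CD21 of B cells and follicular dendritic cells, was at 12.8, 0.33, 0.99 and 4.39 CPM, high in unit 1 and next in unit 4, but at 11, 0.29, 0.55 and 16.6 TPM, highest in unit 4, with 80.4% from short transcripts. Pcna, a clamp of DNA synthesis, was at 186, 158, 111 and 188 CPM, with units 1 and 4 above units 2 and 3. The cell cycle list as a whole was ordered otherwise, with a mean of 5.86, 5.57, 5.40 and 5.16 in log2 CPM, lowest in unit 4. Of its 20 members at 10 CPM or more, 9 were highest in unit 1 and 2 in unit 4. Parvb, an adaptor at integrin sites, was at 11.5, 1.75, 2.51 and 12.6 TPM, of which 99.1% came from short transcripts.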
